A study of Mus musculus with 6 samples.

Results

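The genes described here are 10 antimicrobial and acute-phase genes of epithelia: Lcn2, Slpi, Reg3g, Defb1, Saa1, Saa3, Pigr, Wfdc2, Rnase4 and Cp. They were taken by gene name from the non-control spots of the arrays, where 18 probes carried one of these names, and all 10 were among the 22260 genes tested. Ureters came from mice aged 2 months on a C57BL/6N background, 4 days after unilateral ureteral obstruction (UUO), in which the ureter of 1 side is closed so that urine backs up. The groups were 3 mice labelled Col17a1-WT, all male, and 3 labelled Col17a1-KO, of which replicate 3 was female. Every animal had been obstructed, so no unobstructed ureter enters any comparison, and the labels do not give the deleted part of Col17a1 or say whether the deletion is limited to a tissue. RNA from each ureter was hybridised to its own 1-colour Agilent array, and the labels do not state whether animals were littermates.

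Surfaces that meet urine are protected by secreted peptides and proteins that kill microbes directly, withhold iron from them, or block tissue-damaging proteases. Some are made steadily, while others rise during injury or infection under signals such as interleukin 1, interleukin 6 and interleukin 22, which act through the transcription factors NF-kB, C/EBP and STAT3. Acute-phase proteins such as serum amyloid A are made in large amounts by the liver, and also by epithelial cells and macrophages at the site of injury.

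Values are log2 signals relative to the 75th percentile of each array, so they are comparable between arrays for 1 probe and not between probes. The arrays had 75th-percentile signals between 143.7 and 164.9, no saturated spot, and correlations across genes from 0.977 to 0.993 with each other. Col17a1, which encodes the hemidesmosome protein collagen XVII, was not lower in the libraries labelled KO: it had -2.33, -0.80 and -0.39 in WT and 0.50, 0.53 and 0.40 in the KO-labelled arrays (limma, adjusted p = 0.457). Since the deleted part is not given, whether its probe lies inside it is unknown, and directions below rest on the labels. All 15 urothelial and epithelial markers were well above background on all 6 arrays. All 15 neutrophil markers were well above background on the 3 KO-labelled arrays, and 13 to 14 of them on the WT arrays. Of 11 kidney tubule and podocyte markers, 9 were well above background in WT replicate 2 and 5 to 7 on the other arrays. Of 7 hepatocyte markers, 3 to 5 were well above background. Apoa2, Ahsg and Serpina1a were so on all 6 arrays, and only Apoa1, an abundant liver transcript, was so on no array.

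The windows before the transcription start sites are given for some of the members, chosen as stated below, and no motif searched was found in all of them. RefSeq (GRCm38.p6) gave 12 such windows of 250 bases for 9 of the 10 genes, 3 of which had more than 1 listed start. They were searched on both strands for a C/EBP-type motif (TTGCNNAA), the NF-kB consensus, a STAT-type motif (TTCNNNGAA) and TATAAA. The 6 windows below belong to the 4 members whose first listed window held a C/EBP-type match, and to Reg3g and Wfdc2, whose values did not overlap between the groups. The first 4 were thus picked by that match. The window of Pigr and the first windows of Rnase4 and Cp held no such match and are not printed. Capitals mark a C/EBP-type match in the first 4 and an NF-kB match in Reg3g.
Lcn2, chr2:32387740-32387989, minus strand: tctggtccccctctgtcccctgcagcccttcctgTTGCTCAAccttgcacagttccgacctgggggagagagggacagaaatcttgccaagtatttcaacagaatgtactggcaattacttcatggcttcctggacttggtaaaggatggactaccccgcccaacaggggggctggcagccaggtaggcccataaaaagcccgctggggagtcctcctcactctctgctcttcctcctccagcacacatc
Slpi, chr2:164356508-164356757, minus strand: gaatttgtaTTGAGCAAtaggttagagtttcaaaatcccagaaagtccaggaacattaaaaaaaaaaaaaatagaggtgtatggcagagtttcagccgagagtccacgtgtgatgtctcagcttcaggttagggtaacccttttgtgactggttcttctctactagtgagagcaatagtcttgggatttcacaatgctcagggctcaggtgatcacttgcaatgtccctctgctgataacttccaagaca
Saa1, chr7:46742981-46743230, minus strand: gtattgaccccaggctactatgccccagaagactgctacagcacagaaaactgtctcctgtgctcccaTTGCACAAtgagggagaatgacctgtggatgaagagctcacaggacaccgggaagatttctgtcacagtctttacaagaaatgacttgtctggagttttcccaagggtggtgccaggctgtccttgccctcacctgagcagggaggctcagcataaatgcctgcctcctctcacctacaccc
Saa3, chr7:46715677-46715926, minus strand: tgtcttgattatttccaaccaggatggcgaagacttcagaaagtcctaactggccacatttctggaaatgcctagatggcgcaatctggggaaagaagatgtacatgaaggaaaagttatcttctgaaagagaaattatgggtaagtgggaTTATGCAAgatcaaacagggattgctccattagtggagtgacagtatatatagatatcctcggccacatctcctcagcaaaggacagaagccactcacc
Reg3g, chr6:78468875-78469124, minus strand: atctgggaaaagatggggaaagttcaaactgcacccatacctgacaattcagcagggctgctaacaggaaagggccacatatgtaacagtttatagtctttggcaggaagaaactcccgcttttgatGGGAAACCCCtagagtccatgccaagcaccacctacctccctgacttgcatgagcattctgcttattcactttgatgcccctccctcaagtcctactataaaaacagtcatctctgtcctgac
Wfdc2, chr2:164562465-164562714, plus strand: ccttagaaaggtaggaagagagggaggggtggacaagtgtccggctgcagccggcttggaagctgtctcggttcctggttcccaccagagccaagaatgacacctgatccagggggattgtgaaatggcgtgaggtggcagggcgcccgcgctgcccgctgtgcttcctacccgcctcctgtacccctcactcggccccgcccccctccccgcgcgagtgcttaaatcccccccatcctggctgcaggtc

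The C/EBP-type motif was found in 6 of the 12 windows, the other two being the second listed windows of Rnase4 and Cp. Over all 32851 windows in the table, 9.56% held it. The NF-kB consensus was in 1 of the 12, that of Reg3g, against 7.25% of all windows, and a narrower form of it tried first matched no member. The STAT-type letters were in 0 of the 12 windows, against 7.02% of all. No match overlapped another motif in the windows shown, and that of Wfdc2 held no match to any of the 4. TATAAA was in 2 windows, of Reg3g and Cp, against 12.4% of all windows. These matches describe the letters in the windows and were not tested for binding.

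Of the 10 genes, 6 had a higher and 4 a lower mean in KO-labelled ureters. Their median difference was 0.0029 on the log2 scale, against -0.00087 over all 22260 genes, of which 49.8% were higher. None of the 10 passed the threshold of an adjusted p of 0.05 in limma, and neither did any other gene (0% of those tested). With array weights in the same limma fit 498 genes passed, and none of the 10, of which 3 (Lcn2, lower, and Reg3g and Wfdc2, higher) had an unadjusted p under 0.05. The members' adjusted p-values lay between 0.488 and 0.9998. At an unadjusted p under 0.05 there were 2 of the 10, both higher, against 9.06% of all genes in either direction, 4.35% higher and 4.71% lower. For the same 2 genes, Reg3g and Wfdc2, the groups did not overlap. Over all genes this held for 15.4%, with all KO-labelled values above in 7.28% and below in 8.13%. With 3 arrays against 3, an exact permutation test of a single gene cannot go below p = 0.1. In bulk tissue, fewer cells of a type and less RNA per cell cannot be told apart.

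**Figure D1:**
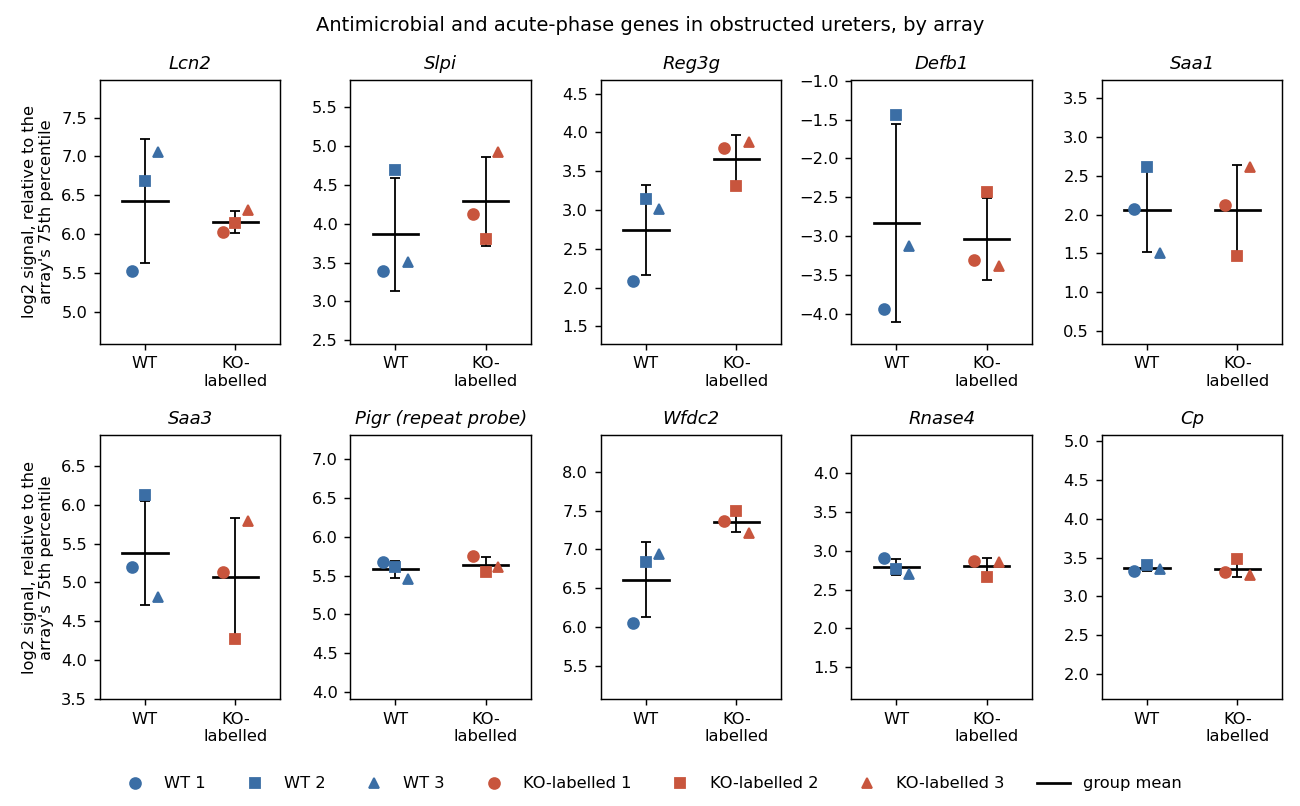
Log2 signal of each gene's brightest probe relative to the array's 75th percentile (vertical axis, the same span in each panel) for the 3 WT and 3 KO-labelled arrays. Symbols mark replicate numbers, horizontal lines the group means and vertical bars the SD. The groups are apart for Reg3g and Wfdc2 and overlap for the others. Rnase4, Cp and Pigr are nearly flat, the last by a repeat probe that cannot be assigned to Pigr alone.

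Reg3g and Wfdc2 were the members with higher values in all KO-labelled arrays. Reg3g encodes a secreted C-type lectin that binds the peptidoglycan of Gram-positive bacteria. Its probe, on chromosome 6 at 78416420 to 78416479 (mm9), had 2.08, 3.14 and 3.02 in WT replicates 1 to 3 and 3.79, 3.30 and 3.88 in KO-labelled replicates 1 to 3. The lowest KO-labelled array was above the highest WT array by a small margin, and WT replicate 1 was the lowest of all. The WT mean was 2.75 ± 0.58 and the KO-labelled mean 3.66 ± 0.31 (SD, n = 3 each), a difference of 0.91 ± 0.32 (SE), or 1.88-fold (limma, unadjusted p = 0.026, adjusted p = 0.493).

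Wfdc2 encodes a secreted protein of the whey acidic protein family made by many lining epithelia. Its probe, on chromosome 2 at 164393935 to 164393994 (mm9), had 6.05, 6.84 and 6.94 in WT and 7.37, 7.49 and 7.21 in KO-labelled replicates 1 to 3. The KO-labelled arrays again lay above every WT array and close to each other, with WT replicate 1 lowest. The difference was 0.75 ± 0.25 (SE), or 1.68-fold (limma, unadjusted p = 0.0234, adjusted p = 0.488).

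For both genes the size depended on WT replicate 1. Without that array the difference was 0.58 for Reg3g and 0.46 for Wfdc2. The count of members at an unadjusted p under 0.05 was 0 without KO-labelled replicate 1, 1 without KO-labelled replicate 2, 1 without KO-labelled replicate 3 and 3 without WT replicate 1. The epithelial marker list moved with these genes: its summed signal, in units of the 75th percentile, was 291.0 to 401.2 in WT and 480.8 to 687.5 in KO-labelled arrays, 14 of its 15 genes were higher, and the mean of the markers differed by 0.75 on the log2 scale. Within WT the order differed, since the markers were lowest in replicate 2 and both genes in replicate 1. The 7 smooth muscle and 6 mesothelial markers were also all higher, with medians of 0.68 and 1.08, though their summed signals overlapped between the groups. The part of these cells in the Reg3g and Wfdc2 values was not tested.

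**Figure D2:**
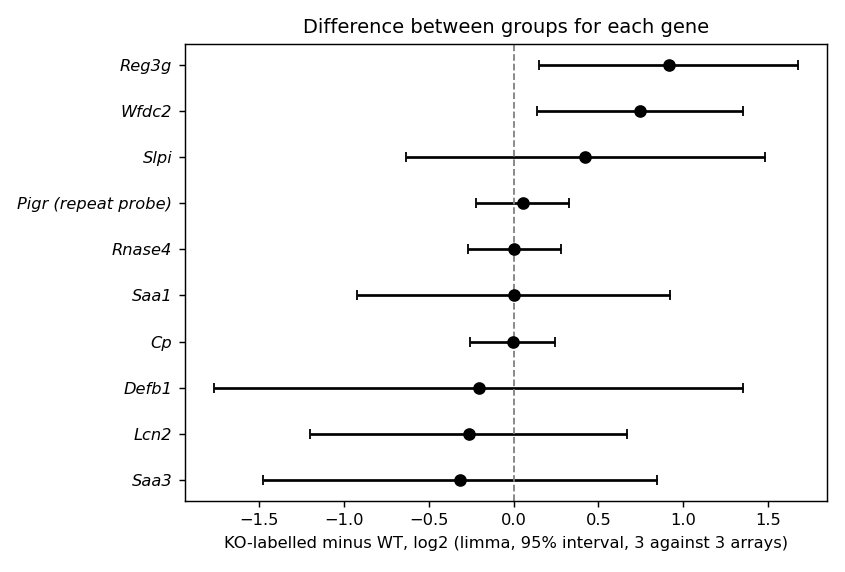
Difference between KO-labelled and WT ureters on the log2 scale (horizontal axis) for each gene, with the 95% interval from limma as a bar and 0 as a dashed line. The intervals of Reg3g (0.15 to 1.68) and Wfdc2 (0.14 to 1.35) lie above 0 before any adjustment, and those of the other 8 genes include 0.

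Among the 14278 genes searched, those nearest to Reg3g in pattern over the 6 arrays were Frmd3, Gpx2, a glutathione peroxidase of epithelia, and Peg10. Their root mean square differences from Reg3g, after each gene was centred on its own mean, were 0.13, 0.14 and 0.19 on the log2 scale. Gpx2 had 1.82, 3.04 and 2.97 in WT and 3.81, 3.50 and 3.91 in KO-labelled replicates 1 to 3, with the same lowest array. Within the 10 genes, Wfdc2 was nearest to Reg3g, at 0.28.

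The other members with a role in direct defence did not separate the groups. Lcn2 encodes lipocalin 2, which binds bacterial siderophores and so withholds iron. Its brightest probe, on chromosome 2 at 32240199 to 32240258 (mm9), had 5.52, 6.68 and 7.05 in WT and 6.02, 6.14 and 6.31 in KO-labelled replicates 1 to 3. The KO-labelled arrays lay inside the WT range, with an SD of 0.14 against 0.80 in WT. The difference was -0.26 ± 0.38 (SE), with a 95% interval of -1.20 to 0.67 (limma, adjusted p = 0.862). The second probe, whose 60 bases span 245 bases of the genome and so cross an exon junction, differed by -0.25 and had the same lowest and highest arrays, WT replicates 1 and 3. Without WT replicate 1 the Lcn2 difference was -0.71 (limma, unadjusted p = 0.00616, adjusted p = 0.378), and without WT replicate 3 it was 0.053. With array weights it was -0.87 ± 0.22 (SE; limma, unadjusted p = 0.00639, adjusted p = 0.0726), the lowest adjusted p of any member under any alternative run.

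Slpi encodes an inhibitor of neutrophil elastase that also has antimicrobial activity. Its brightest probe, on chromosome 2 at 164179849 to 164179908 (mm9), had 3.39, 4.70 and 3.51 in WT and 4.13, 3.81 and 4.92 in KO-labelled replicates 1 to 3. WT replicate 2 and KO-labelled replicate 3 were high, and the groups overlapped. The difference was 0.42 ± 0.44 (SE) (limma, adjusted p = 0.801). Its second measured probe, nearer the transcript's beginning, differed by 0.0058 and ranged over only 0.60 across arrays where the brightest ranged over 1.54, and the remaining probe stayed at background on all 6 arrays.

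Defb1 encodes beta-defensin 1, an antimicrobial peptide that is made without stimulation in kidney tubules and other urinary epithelium. Its probe, on chromosome 8 at 22905599 to 22905658 (mm9), had -3.94, -1.44 and -3.13 in WT and -3.30, -2.43 and -3.39 in KO-labelled replicates 1 to 3. WT replicate 2 stood highest and WT replicate 1 lowest, so WT alone spanned the whole range of 2.498, the widest of the 10 genes. The probe was well above background on all 6 arrays, but its signal was the lowest among the brightest probes of the 10 genes. Its range therefore depends on the background correction: with normexp background the difference was -0.14 ± 0.23 (SE). The difference was -0.21 ± 0.64 (SE) (limma, adjusted p = 0.946), and without WT replicate 2 it was 0.49 (adjusted p = 0.808). The summed signal of the 6 measured kidney markers was 2.91 in WT replicate 2 and 0.51 to 0.61 on the other 5 arrays. Their part in the Defb1 values was not tested. The genes nearest to Defb1 in pattern included Iqcg and Proc, with root mean square differences of 0.33 and 0.37.

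Rnase4 encodes a secreted ribonuclease of the RNase A family with activity against uropathogens. Its probe, on chromosome 14 at 51725036 to 51725095 (mm9), had 2.91, 2.77 and 2.70 in WT and 2.87, 2.67 and 2.86 in KO-labelled replicates 1 to 3. All 6 values lay within 0.24 of each other, and the difference was 0.0053 with a 95% interval of -0.27 to 0.28 (limma, adjusted p = 0.993). RefSeq gives Ang, which encodes angiogenin of the same family, an identical first start site, and Ang differed by -0.18 ± 0.13 (SE) (limma, adjusted p = 0.715).

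The serum amyloid A genes among the 10 had overlapping groups, with high arrays in each. Saa1 encodes an apolipoprotein of the acute phase. Its probe, on chromosome 7 at 53996070 to 53996129 (mm9), had 2.07, 2.61 and 1.51 in WT and 2.12, 1.46 and 2.61 in KO-labelled replicates 1 to 3. The group means were nearly equal, with a difference of 0.00043 and a 95% interval of -0.92 to 0.92 (limma, adjusted p = 0.9998). Saa3, the serum amyloid A made by macrophages and epithelia, had 5.20, 6.13 and 4.81 in WT and 5.13, 4.27 and 5.80 in KO-labelled replicates 1 to 3 at its probe on chromosome 7, 53967559 to 53967618 (mm9). Its difference was -0.32 ± 0.48 (SE) (limma, adjusted p = 0.872).

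Saa1 and Saa3 were the most alike of the variable members, with a root mean square difference of 0.22, and Slpi was 0.34 from Saa1. For all 3 genes WT replicate 2 and KO-labelled replicate 3 were the highest arrays. The same arrays were highest for the summed signal of the 15 neutrophil markers. It was 332.2 in WT replicate 2, 335.3 in KO-labelled replicate 3 and 148.5 to 214.4 on the other 4. Not every marker followed the sum: Ltf, Camp and Ngp were highest in KO-labelled replicate 2 and Ly6g in KO-labelled replicate 1. In KO-labelled replicate 2, where Saa3 was lowest, that sum was 207.3. The part of these cells in the Saa1, Saa3 and Slpi values was not tested. Genes nearest to Saa3 were Slc2a6, Hcar2, a receptor of myeloid cells and adipocytes, and Pgam2, at 0.19, 0.20 and 0.21.

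**Figure D3:**
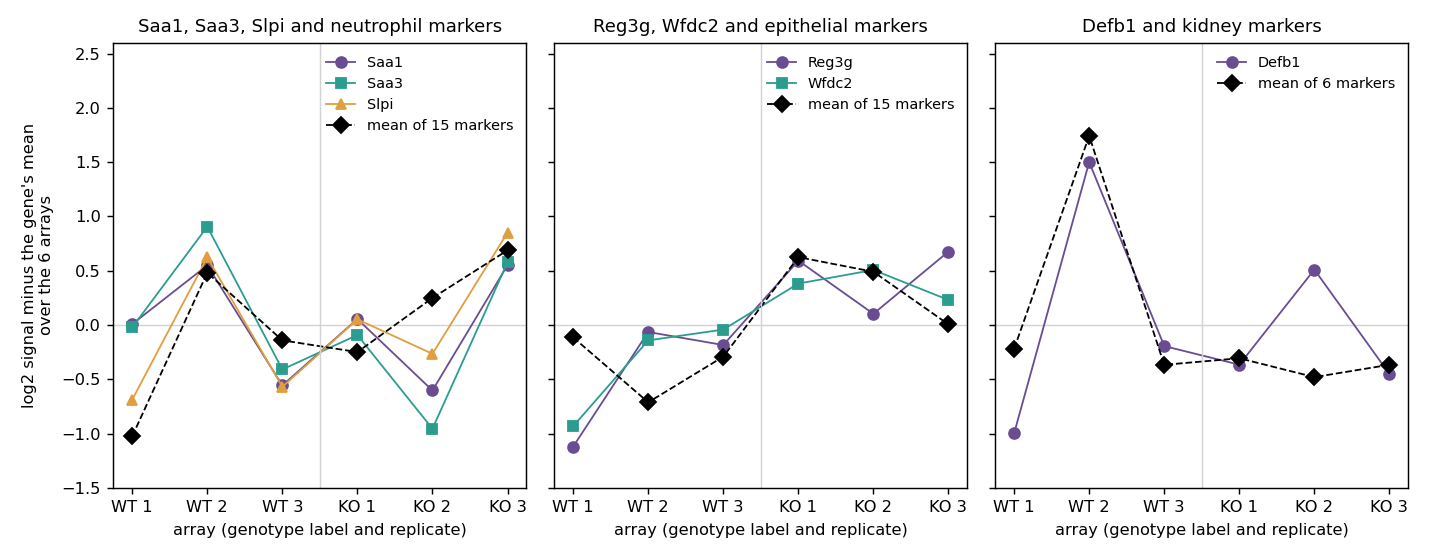
Log2 signal minus each gene's mean over the 6 arrays (vertical axis) by array, with the mean of a marker list as black diamonds on a dashed line. Saa1, Saa3 and Slpi peak in WT replicate 2 and KO-labelled replicate 3 (left), Reg3g and Wfdc2 are higher in all KO-labelled arrays (middle), and Defb1 peaks in WT replicate 2 with the kidney markers (right).

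Saa2, a near-identical neighbour of Saa1, had its own probe. It had 0.93, 0.48 and -0.26 in WT and 1.39, 0.95 and 1.59 in KO-labelled replicates 1 to 3, so that every KO-labelled array lay above every WT array, by a difference of 0.93 ± 0.33 (SE) (limma, unadjusted p = 0.0284, adjusted p = 0.501). Because transcripts of Saa1 and Saa2 are so alike that a probe may bind both, the values of either gene are uncertain, and the difference between them was not tested.

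Cp encodes ceruloplasmin, a copper-carrying ferroxidase of the acute phase. Its brightest probe, on chromosome 3 at 19889071 to 19889130 (mm9), had 3.33, 3.41 and 3.35 in WT and 3.32, 3.48 and 3.28 in KO-labelled replicates 1 to 3. The arrays lay within 0.20 of each other, and the difference was -0.0048 with a 95% interval of -0.25 to 0.25 (limma, adjusted p = 0.993). Of its 5 probes 3 were lower and 2 higher, with differences from -0.098 to 0.25, and the probe listed for another transcript at 19869171 to 19869230 ranged over 1.01, with WT replicate 1 lowest.

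Pigr, the receptor that carries polymeric immunoglobulin A across epithelia, has no value here that can be assigned to it alone. The brightest of its 2 probes had 5.67, 5.61 and 5.46 in WT and 5.76, 5.54 and 5.61 in KO-labelled replicates 1 to 3, a difference of 0.054 ± 0.11 (SE) (limma, adjusted p = 0.915). Its 60 bases hold 33 A and 27 G and no other base, and the file lists it on chromosome 9 at 123832569 to 123832628 (mm9), under accessions that RefSeq pairs with Pigr on chromosome 1, Zfp811 on chromosome 17 and Rhox8 on the X chromosome. The other probe, on chromosome 1 at 132741106 to 132741165 (mm9), stayed at background on all 6 arrays, with log2 values from -7.38 to -5.57. The first 30 bases of the repeat probe and the whole of the other probe are printed to show how they differ.
Pigr probe listed on chromosome 9, first 30 bases: gaggaggaggaggagaaggagaaggagaag
Pigr probe listed on chromosome 1: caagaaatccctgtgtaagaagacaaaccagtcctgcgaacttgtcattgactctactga

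The array holds 15 probes made of A and G alone, and 14 of them (93.3%) were well above background on all 6 arrays, against 59.0% of all 56605 probes. Their ranges over the arrays were 0.22 to 0.39 in log2, and the Pigr probe's was 0.29. Without the repeat probe the count of 10 measured genes falls to 9, of which 5 were higher in the KO-labelled ureters. Whether the probes of those 9 bind only transcripts of their own gene was not tested.

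**Figure D4:**
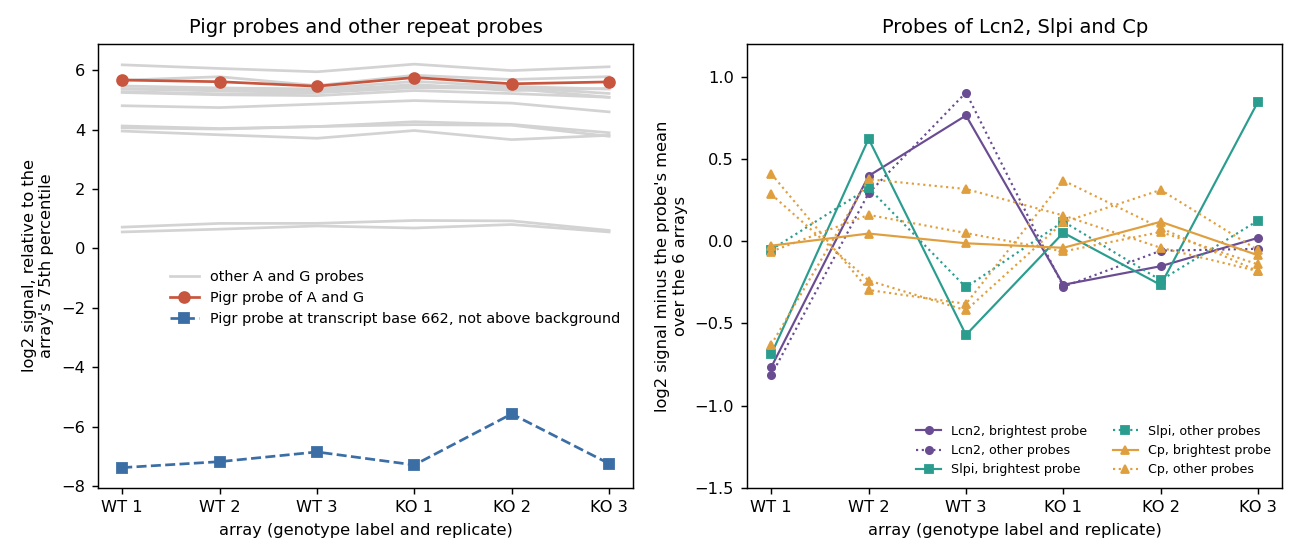
Left, log2 signal relative to the 75th percentile (vertical axis) by array for both Pigr probes and the other A and G probes that were well above background, with the Pigr repeat probe flat among them and its other probe near -7. Right, log2 signal minus the probe's mean over the arrays for the measured probes of Lcn2, Slpi and Cp, with the brightest probe of each gene as a solid line; the Lcn2 probes run together, and the other Slpi probe varies less than the brightest.

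The 10 genes fell apart by how much they varied between animals. Defb1, Saa3, Reg3g, Slpi, Lcn2, Wfdc2 and Saa1 ranged over 1.15 to 2.498 across the 6 arrays, which placed them between the 84.2 and 98.2 percentiles of all genes tested. Of these, Defb1 had the lowest signal, where the range depends on the background correction. Pigr, Rnase4 and Cp ranged over 0.20 to 0.29, between the 6.10 and 16.2 percentiles. The Pigr range is that of the repeat probe and cannot be assigned to that gene. The A and G probes well above background ranged over 0.22 to 0.39. WT replicate 1 was the lowest array for 5 of the 10 genes, and KO-labelled replicate 3 the highest for 3.

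Other genes of the same defence were taken from lists chosen with earlier results of these data known, and 0 of them passed the adjusted threshold. Of 37 other epithelial antimicrobial genes on the array, 14 were measured, 5 higher and 9 lower, with a median of -0.13. At an unadjusted p under 0.05 there were 3 of the 14, all lower, against 4.71% of all genes lower at that p. In 4 every KO-labelled array lay below every WT array, against 8.13% of all genes. The lectins Reg3b, Reg3a, Reg1, Reg2 and Reg4 and the defensins Defb2, Defb3, Defb4, Defb6 and Defb14 were well above background on no array. Lyz2, the lysozyme of macrophages and neutrophils, had 8.42, 8.50 and 8.46 in WT and 8.03, 7.97 and 8.27 in KO-labelled replicates 1 to 3, a difference of -0.37 ± 0.12 (SE) (limma, adjusted p = 0.474). Wfdc12, another whey acidic protein gene, differed by -0.81, Rnase6, a ribonuclease of myeloid cells and kidney, by -0.72 and Lyz1 by -0.18. The summed signal of 11 macrophage markers was 419.2 to 473.3 in WT and 328.1 to 408.1 in KO-labelled arrays, and its part in these values was not tested.

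Of 26 other acute-phase genes, 23 were measured, 15 higher and 8 lower, with a median of 0.17. Against 9.06% of all genes, 2 of the 23 had an unadjusted p under 0.05. These were Saa2, above, and Serpina1a, a protease inhibitor gene with near-identical copies, at -0.54 ± 0.20 (SE) (limma, adjusted p = 0.514). Cfb, a complement factor, differed by -0.33 and Serpina3n, a protease inhibitor, by 0.42, with overlapping groups. The pentraxins Apcs and Crp, which the liver makes, were the only 2 of the 26 genes that were well above background on no array.

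Of 16 measured iron handling genes beside Lcn2 and Cp, 6 were higher and 10 lower (median -0.050). An unadjusted p under 0.05 was found for 5, 2 higher and 3 lower, against 9.06% of all genes. The 5 include Cybrd1, higher, well above background on 1 WT and 3 KO-labelled arrays, and Lrp2, lower, on 3 WT and 1 KO-labelled array. Each entered the test only through the group where it was high, which favoured its place in these counts beforehand. Ltf, the iron-binding lactoferrin of neutrophil granules and secretions, had -4.18, -3.76 and -3.60 in WT and -2.06, -1.06 and -2.45 in KO-labelled replicates 1 to 3, a difference of 1.99 ± 0.37 (SE) (limma, adjusted p = 0.418). Ltf is also 1 of the 15 neutrophil markers, of which 8 were higher and 7 lower. Their mean differed by 0.46, while their median difference was 0.11. An unadjusted p under 0.05 was found for 4 of these markers, Ltf, Camp, Ngp and Ly6g, named after their values were seen. Over all genes 4.35% were higher at that p. In each of the 4 every KO-labelled array lay above every WT array, as in 7.28% of all genes. Camp, the cathelicidin of neutrophil granules, differed by 1.17 and Ly6g by 0.34 (limma, adjusted p-values 0.398 and 0.55). Ngp was well above background on the 3 KO-labelled arrays and on 0 WT arrays. It thus entered the test only through the group where it was high, which favoured its place in these counts beforehand. The same held for Cd177, also among the higher markers, which was well above background on 2 WT arrays and the 3 KO-labelled arrays. The part of neutrophils in the Ltf values was not tested. Lcn2, which neutrophils also carry in granules, overlapped between the groups, and the difference between both genes was not tested. Slc11a2, an iron importer, differed by -0.40, Slc40a1, the iron exporter ferroportin, by -0.72 and Tfrc, the transferrin receptor, by 0.35. In each the groups did not overlap, as in 5 of the 16 iron handling genes and 15.4% of all genes. Those 5 include Lrp2, whose place the filter favoured as said above.

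Of the cytokines and receptors that act on these genes, 19 of 24 were measured, 8 higher and 11 lower (median -0.059). An unadjusted p under 0.05 was found for 2, both higher, against 9.06% of all genes in either direction. The interleukin 17 genes Il17a, Il17c and Il17f were well above background on no array. Il17rc and Il17re, receptor chains for that family on epithelia, differed by 0.30 and 0.78 (limma, adjusted p-values 0.488 and 0.49), and Il22ra1, a receptor chain for interleukin 22, by 0.45. Tlr2, a receptor for bacterial lipopeptides, differed by -0.60. The mean of the list, after centring each gene, was lowest in WT replicate 1 at -0.59 and highest in WT replicate 2 and KO-labelled replicate 3, at 0.46 and 0.41.

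Of 16 measured signalling and transcription factors 10 lay above WT in their means and 6 lay below, the median being 0.061. The epithelial factors Spdef, Ehf and Elf3 were among those with the lowest p-values, with differences of 1.01, 0.76 and 0.63 (limma, adjusted p-values from 0.418 to 0.512), and the epithelial markers given above moved with them. Of 5 genes of immunoglobulin A transport on the array, 3 were measured, and Jchain, which joins immunoglobulin A into dimers, differed by 0.73 ± 0.44 (SE) (limma, adjusted p = 0.654).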

How the data were processed

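Per the labels' protocols, total RNA of 6 ureters, 1 array each, was labelled with Cy3. Per the file headers, the deposited intensity values are processed signals of Agilent Feature Extraction 12.0.3.1, with background subtracted and a spatial trend removed; probe coordinates are mm9. Any normalisation the authors made across arrays is not stated in the labels or headers. All arrays shared 1 scan time and slide, so neither could act as a batch.

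Flagged spots were set to missing, spots of a probe averaged, and log2 processed signals centred on each array's 75th percentile. A probe was kept if each array of either group or both had it well above background, and the brightest probe represented a gene. Symbols came from RefSeq (GRCm38.p6) for 35405 of 56605 probes by accession and from the files otherwise. Groups were compared over all 22260 genes with limma 3.58.1 in R 4.3.3 (lmFit, eBayes), Benjamini-Hochberg adjusted at 0.05; the steps were tested on simulated data. The number of arrays limits the precision, and p-values measure the spread between these 6 mice. Members, lists and tests were chosen with earlier results of these data known. Named genes were all members and, of each list, the 4 with the lowest p among genes well above background on all arrays, plus the 3 genes nearest in pattern to the 3 most variable members, though 2 genes that this rule names are not reported here; genes of the defensin, lectin and other families named as not above background, Ang and Apoa1, were chosen after their values were seen. Alternatives covered background correction, scaling, filters, probes, variance model, weights, sex, replicate number and left-out arrays.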

Additional observations from a re-analysis of the deposited data

How the results depend on the processing

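The count of members past the adjusted threshold was 0 under each of the 19 alternatives. The count over all genes was 498 with array weights and 1 with the replicate number as a block, and 0 to 1 when 1 array was left out. At an unadjusted p under 0.05, 0 to 3 members were found when 1 array was left out and 1 with sex as a covariate, which also removes the female animal. Members higher numbered 4 to 8 when 1 array was left out. Reg3g and Wfdc2 stayed higher under every alternative run, from 0.58 to 1.11 and from 0.46 to 0.93, with adjusted p-values from 0.0784 to 0.951 and from 0.0907 to 0.999, the lowest with array weights. Slpi also stayed higher, from 0.10 to 0.84. Of the differences that changed sign, Cp, near 0, was 0.0065 with normexp background, 0.023 with median centring, 0.056 with the mean of its probes, 0.0052 with array weights, 0.037 with the sex covariate and 0.059 with WT replicate 2 and KO-labelled replicate 3 both left out. Rnase4 was -0.025 with the sex covariate and -0.039 without that pair of arrays, Saa1 was -0.27 with the sex covariate, Saa3 0.041 with array weights against -0.32, and Defb1 0.67 without that pair against -0.21. Lcn2 was -0.87 with array weights against -0.26, with an adjusted p of 0.0726. With 1 array left out the ranges were -0.71 to 0.053 for Lcn2, -0.76 to 0.49 for Defb1, -0.28 to 0.30 for Saa1, -0.68 to 0.084 for Saa3, -0.0063 to 0.099 for Pigr, -0.039 to 0.071 for Rnase4 and -0.065 to 0.037 for Cp. The cause was not tested. Deviations of same-numbered arrays from their group means had correlations of 0.53, -0.15 and -0.030. With 3 arrays a group these cannot settle whether the numbers pair the samples, which the labels do not state. The block moved no member past the threshold. The alternative without the Pigr repeat probe was chosen after seeing the data. Few arrays limit what can be detected.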
